A study of Mus musculus with 2 samples.

Results

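The genes described here encode the long scaffold proteins of the sarcomere and their partners in the Z-disc and the M-band. They are *Ttn*, *Neb*, *Mybpc1*, *Mybpc2*, *Myom1*, *Myom2*, *Myom3*, *Ldb3* and *Actn2*, chosen by symbol with earlier results of these data known, and they are 9 of the 27998 genes in the count tables. Single-nucleus RNA-Seq was performed on gastrocnemius-plantaris (GP) muscle, the calf muscles of the mouse hindlimb, with 1 library of control nuclei (Ctrl) and 1 from mice lacking Net39 in muscle fibres (cKO). Ctrl mice were Net39 fl/fl and Cre-negative, and cKO mice were HSACreERT2;Net39 fl/fl. All were of the B6C3F1 background, carried Net39 alleles with a floxed first exon, were 5 months old and were taken 3 months after tamoxifen, which both groups received. The human skeletal actin promoter drives the inducible Cre in skeletal muscle fibres, not in the cells between them. The protocol says that 3 muscles were pooled for each library, while each library's title names 1 mouse, so the number of animals behind a value is uncertain and no nucleus can be traced to one. With 1 library per group, no test of a difference between groups was possible. All intervals below are 95% intervals for counting error alone, which leave out how animals and nuclei vary.

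Titin reaches from the Z-disc to the M-band and acts as the molecular spring of the sarcomere, and nebulin runs along the thin filament of skeletal muscle. Myosin-binding protein C lies across the thick filament in a slow form (*Mybpc1*) and a fast form (*Mybpc2*), and myomesins cross-link thick filaments in the M-band. α-Actinin-2 (*Actn2*) and the PDZ-LIM protein ZASP (*Ldb3*) sit in the Z-disc, where α-actinin ties thin filaments and titin together. Several of these proteins have forms that differ between slow and fast fibres, and mutations in their genes cause myopathies.

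The filters left 3526 Ctrl nuclei with a median of 2039.5 unique molecular identifiers (UMIs, each standing for a captured RNA molecule) and 3595 cKO nuclei with a median of 1612. *Malat1*, a nuclear RNA, made up 25.5% of Ctrl and 30.7% of cKO UMIs, and the libraries shared 5 barcode sequences. *Plpp7*, the gene of Net39, was at 47.6 CPM (counts per 1000000 UMIs) in Ctrl and 40.4 in cKO, but the assay reads the 3′ end and the deletion removes the first exon, so this does not check the genotype.

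Each nucleus was placed by its main myosin, the gene among *Myh7* (type I), *Myh2* (type IIa), *Myh1* (type IIx) and *Myh4* (type IIb) that held 60% or more of their joint UMIs, where these numbered 3 or more. Myh7-main nuclei numbered 21 in Ctrl and 284 in cKO, Myh2-main nuclei 172 and 329, Myh1-main nuclei 311 and 395, and Myh4-main nuclei 2034 and 1489. A further 137 Ctrl and 225 cKO nuclei had enough myosin UMIs but no main myosin and are called mixed. All of these together, 2675 in Ctrl and 2722 in cKO, are called myosin-read nuclei. Every Ctrl value for type I rests on 21 nuclei with 43949 UMIs in all, 7.47% of them from the largest nucleus.

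The classes carried the markers of their fibre types. The 8 slow fibre genes summed to 8464 CPM in Ctrl and 6877 in cKO Myh7-main nuclei, with UMIs of 8 of 8 in both, against 50.1 and 269 CPM in Myh4-main nuclei. The 8 fast fibre genes summed to 1729 and 948 CPM in Myh7-main nuclei and to 5734 and 5998 in Myh4-main nuclei. Of 22 markers of cells outside the fibre, Ctrl Myh7-main nuclei had UMIs of 6 and cKO ones of 13, summing to 501 and 78.4 CPM. The 6 in Ctrl were *Dcn*, *Col3a1*, *Abca8a*, *Mrc1*, *F13a1* and *Pax7*, with 22 UMIs in all. The others, *Pdgfra* and *Pecam1* among them, were at 0 there. In Myh4-main nuclei 22 and 21 of them had UMIs, summing to 227 and 105 CPM. The part of such RNA in the values below was not tested.

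Some UMIs of the scaffold genes were also found where they are not expected, as free RNA is known to cause in droplet data. In the 341 Ctrl and 124 cKO nuclei in which markers of cells outside the fibre outnumbered the myosins (outside-fibre nuclei), *Ttn* was at 10799.7 and 8084 CPM, 24.1% and 20.8% of its level in myosin-read nuclei. Over the 9 genes these shares ran from 21.4% (*Myom2*) to 27.5% (*Actn2*) in Ctrl and from 13.8% (*Myom1*, 1 UMI) to 23.3% (*Actn2*) in cKO. *Myh4* itself was at 21.2% and 14.3%. Outside-fibre nuclei were shallower, with a median depth of 1279 (Ctrl) and 1115 UMIs (cKO) against 2350.5 and 1669 for Myh4-main nuclei. Of them, 47 in Ctrl and 12 in cKO also counted as myosin-read nuclei. The pooled *Ttn* level stood above the upper quartile of single outside-fibre nuclei, 0.786% of UMIs in Ctrl and 0.584% in cKO. It thus overstates what most of these nuclei held.

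The start regions of genes that sorted by fibre type are shown because these genes differed between the same classes in opposite directions. RefSeq (GRCm38.p6) windows of 300 bases, 250 before the transcription start and 50 from it on, were found for 7 of the 9 genes. *Mybpc1* (chr10:88605103-88605402, minus strand), *Myom3* (chr4:135759465-135759764, plus strand) and *Actn2* (chr13:12340683-12340982, minus strand) were higher in Myh7- and Myh2-main than in Myh4-main nuclei, and *Mybpc2* (chr7:44524620-44524919, minus strand) was lower. The *Ttn* window (chr2:76982498-76982797, minus strand) stands for a gene that differed little between classes in Ctrl. Capitals mark matches, on either strand, to the E-box CANNTG, the MCAT element CATTCC, the TATA motif TATAAA, and the MEF2 and CArG motifs.
Mybpc1: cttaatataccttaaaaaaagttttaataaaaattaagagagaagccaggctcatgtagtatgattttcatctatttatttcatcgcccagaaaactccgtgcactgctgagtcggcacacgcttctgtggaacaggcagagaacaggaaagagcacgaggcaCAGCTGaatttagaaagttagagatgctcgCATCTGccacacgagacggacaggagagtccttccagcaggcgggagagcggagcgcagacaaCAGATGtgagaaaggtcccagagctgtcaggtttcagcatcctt
Myom3: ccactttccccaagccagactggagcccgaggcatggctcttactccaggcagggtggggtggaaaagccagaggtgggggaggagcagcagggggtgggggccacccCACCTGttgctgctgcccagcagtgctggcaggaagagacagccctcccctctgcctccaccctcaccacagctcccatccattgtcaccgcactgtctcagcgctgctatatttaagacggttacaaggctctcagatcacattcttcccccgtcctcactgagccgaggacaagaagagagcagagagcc
Actn2: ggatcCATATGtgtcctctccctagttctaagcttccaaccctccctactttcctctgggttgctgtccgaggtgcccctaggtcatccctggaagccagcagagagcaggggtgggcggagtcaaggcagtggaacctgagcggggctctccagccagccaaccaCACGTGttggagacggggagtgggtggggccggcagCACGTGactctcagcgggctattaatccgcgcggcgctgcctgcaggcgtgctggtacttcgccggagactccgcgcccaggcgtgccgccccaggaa
Mybpc2: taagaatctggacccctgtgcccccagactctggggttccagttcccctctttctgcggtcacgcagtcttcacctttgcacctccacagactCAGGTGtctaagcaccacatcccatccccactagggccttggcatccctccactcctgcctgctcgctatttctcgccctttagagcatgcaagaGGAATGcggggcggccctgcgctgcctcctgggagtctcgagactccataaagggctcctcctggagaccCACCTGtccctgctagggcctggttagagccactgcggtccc
Ttn: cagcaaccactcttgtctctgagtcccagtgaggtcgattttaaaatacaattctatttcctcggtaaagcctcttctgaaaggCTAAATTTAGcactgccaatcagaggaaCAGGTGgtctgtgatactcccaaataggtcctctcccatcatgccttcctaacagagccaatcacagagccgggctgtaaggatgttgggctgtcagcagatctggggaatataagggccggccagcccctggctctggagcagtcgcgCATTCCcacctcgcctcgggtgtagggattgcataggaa
An E-box, the motif of muscle bHLH factors, was in all 5 of these windows and in 72.3% of all 32851 windows of that length. The MCAT element was in the *Ttn* and *Mybpc2* windows and in 14.7% of all windows. The MEF2 motif was in the *Ttn* window, from -166 to -157 relative to the start, and in 0.557% of all windows. Only this strict form was searched, and ctatatttaa in the *Myom3* window differs from it in the last base alone. TATAAA (13.6% of all windows) and the CArG motif (1.63%) were in none of the 5. These matches describe letters and not binding.

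**Figure D1:**
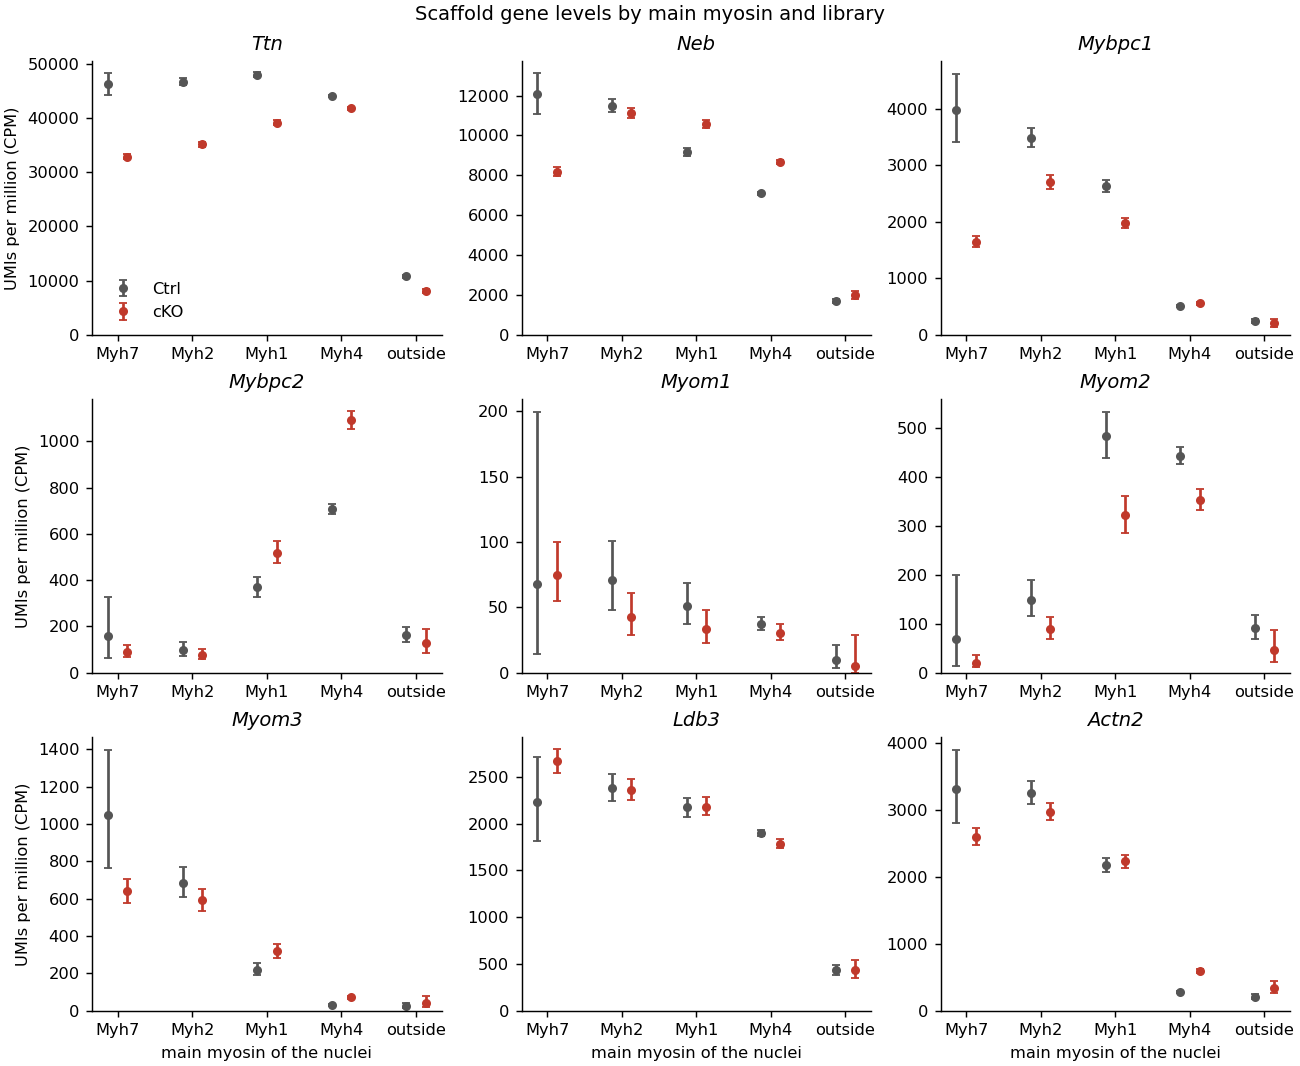
Level of each scaffold gene (vertical axes, CPM, starting at 0) in nuclei grouped by main myosin and in outside-fibre nuclei, for Ctrl (grey) and cKO (red), with 95% exact Poisson intervals that cover counting error only. *Mybpc1*, *Myom3* and *Actn2* stand higher in Myh7- and Myh2-main than in Myh4-main nuclei, *Mybpc2* and *Myom2* stand lower, and *Ttn* and *Ldb3* differ little between classes in Ctrl.

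*Ttn*, the gene of titin, lies on the minus strand at chr2:76703980-76982547 (GRCm38, GENCODE M21) and spans 279 kb with 345 merged exons. In Ctrl it was at 46235 CPM in Myh7-main, 46700.3 in Myh2-main, 47963 in Myh1-main and 44096 in Myh4-main nuclei. In cKO it was at 32838, 35098, 39133 and 41756 CPM. Classes that were close together in Ctrl thus stood in the order of the myosins in cKO, with no overlap between neighbours. Within cKO the log2 ratio of Myh7- over Myh4-main nuclei was -0.35 (-0.37 to -0.33). With *Malat1* and mitochondrial genes left out of the totals this distance was smaller, at -0.24 (-0.26 to -0.22). The log2 ratio of cKO over Ctrl was -0.49 (-0.56 to -0.43) in Myh7-main, -0.41 (-0.44 to -0.39) in Myh2-main, -0.29 (-0.31 to -0.27) in Myh1-main and -0.08 (-0.09 to -0.07) in Myh4-main nuclei. The intervals of Myh7- and Myh2-main nuclei overlapped, and those of Myh2-, Myh1- and Myh4-main nuclei did not. For outside-fibre nuclei the log2 ratio of cKO over Ctrl was -0.42 (-0.50 to -0.34), near the Myh2-main value. The part of this difference in the values of the fibre nuclei was not tested. Antisense genes in the count tables overlap *Ttn* (*Gm13938*) and *Neb* (*Gm13522*).

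In single cKO nuclei the *Ttn* medians stood in the same order, at 2.95%, 3.30%, 3.92% and 4.004% of UMIs from Myh7- to Myh4-main nuclei. The Ctrl medians were 5.23%, 4.43%, 4.45% and 4.17%, so Myh7-main nuclei stood highest, unlike in the pooled Ctrl levels. *Ttn* made up a median of 5.23% of the UMIs of a Ctrl Myh7-main nucleus (quartiles 3.52% and 5.83%) and 2.95% of a cKO one (2.39% and 3.64%). In Myh4-main nuclei the medians were 4.17% (3.44% and 5.05%) and 4.004% (3.30% and 4.88%). The ranges between quartiles overlapped narrowly in the first class and almost wholly in the second. Outside-fibre nuclei had medians of 0.300% and 0.185%. Thinned to 500 UMIs, the variance of *Ttn* UMIs over their mean ran from 2.63 to 4.44 in the main-myosin classes. This is above what counting error alone gives, so the intervals for *Ttn* levels and ratios are too narrow.

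*Neb*, the gene of nebulin, lies on the minus strand at chr2:52136647-52378474 and spans 242 kb. In Ctrl it was graded by fibre type, at 12082 CPM in Myh7-main, 11490.5 in Myh2-main, 9159.5 in Myh1-main and 7104 in Myh4-main nuclei. The cKO values were 8182, 11133, 10578 and 8672 CPM, so that Myh7-main nuclei stood last, but with *Malat1* and mitochondrial genes left out of the totals they did not, with a log2 ratio over Myh4-main nuclei of 0.02 (-0.02 to 0.06) in place of -0.08 (-0.13 to -0.04). The Ctrl intervals of Myh7- and Myh2-main nuclei overlapped, and the other neighbours did not. cKO over Ctrl gave a log2 ratio of -0.56 (-0.69 to -0.43) in Myh7-main, -0.05 (-0.10 to 0.01) in Myh2-main, 0.21 (0.16 to 0.25) in Myh1-main and 0.29 (0.27 to 0.31) in Myh4-main nuclei. With *Malat1* and mitochondrial genes left out of the totals the Myh2-main value was 0.13. The Myh7-main difference was then smaller, as the median over all genes there moved from -0.08 to 0.14, and the Myh1- and Myh4-main differences were larger. Per nucleus, *Neb* made up a median of 1.07% of UMIs in Ctrl and 0.730% in cKO Myh7-main nuclei, and 0.680% and 0.818% in Myh4-main nuclei.

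The ratio of the giant transcripts does not depend on the totals. For every 100 *Ttn* UMIs, Myh4-main nuclei held 16.1 (15.9 to 16.3) *Neb* UMIs in Ctrl and 20.8 (20.5 to 21.04) in cKO. The ratios were 19.1 and 27.03 in Myh1-main and 24.6 and 31.7 in Myh2-main nuclei. In these classes the cKO ratio was the higher, while the intervals overlapped in Myh7-main nuclei, at 26.1 (23.7 to 28.8) and 24.9 (24.2 to 25.7). Outside-fibre nuclei had 15.7 (14.7 to 16.7) and 24.8 (22.1 to 27.7), a difference in the same direction, and its part in the values of the fibre nuclei was not tested. This ratio was chosen after the levels had been seen.

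**Figure D2:**
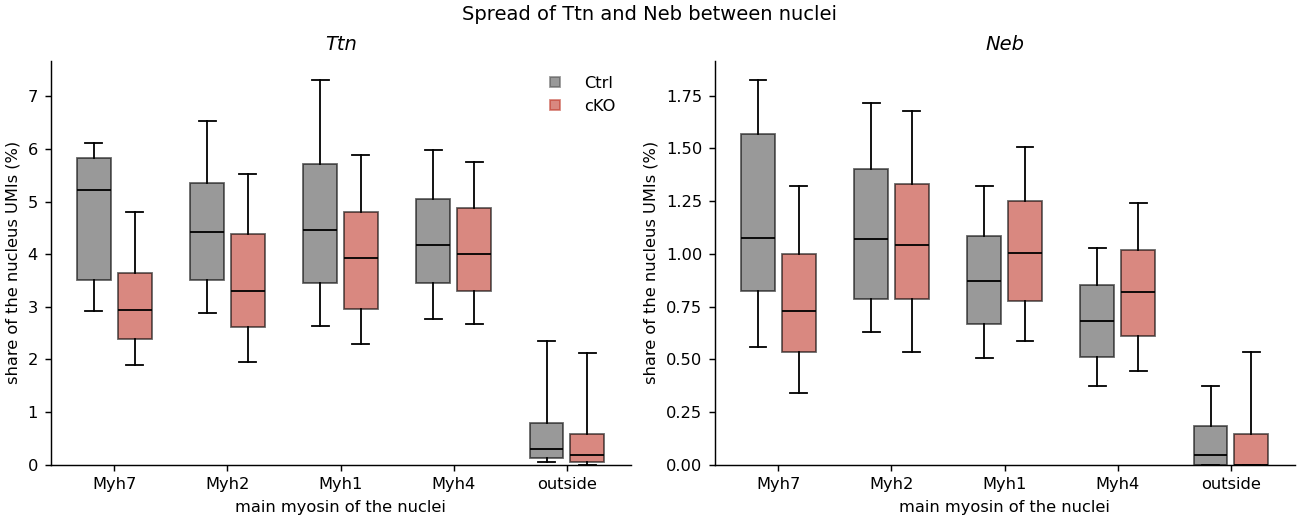
Share of a nucleus's UMIs (vertical axes, percent) from *Ttn* and from *Neb*, by main myosin and in outside-fibre nuclei, for Ctrl (grey) and cKO (red) (nuclei are not replicates). Boxes run between the quartiles with a line at the median, and whiskers reach the 10th and 90th percentiles. The median for *Ttn* was 5.23% in Ctrl and 2.95% in cKO Myh7-main nuclei, and 4.17% and 4.004% in Myh4-main nuclei.

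*Mybpc1*, slow myosin-binding protein C, lies on the minus strand at chr10:88518279-88605152. In Ctrl it was at 3982 CPM in Myh7-main, 3486 in Myh2-main, 2630.3 in Myh1-main and 501 in Myh4-main nuclei. In cKO it was at 1644, 2694, 1979 and 561 CPM. Myh7- and Myh2-main nuclei overlapped at the top in Ctrl, and in cKO Myh7-main nuclei were below Myh2- and Myh1-main nuclei. The log2 ratio was -1.28 (-1.51 to -1.04) in Myh7-main, -0.37 (-0.47 to -0.27) in Myh2-main, -0.41 (-0.50 to -0.32) in Myh1-main and 0.16 (0.08 to 0.25) in Myh4-main nuclei. With the main myosin read after thinning each nucleus to 500 UMIs, it was -0.61 (-0.98 to -0.22) in Myh7-main and -0.28 (-0.45 to -0.11) in Myh4-main nuclei, and it was -0.05 in Myh4-main nuclei with no UMI of *Myh7* or the slow fibre genes, so the direction in the latter depended on how they were defined.

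*Mybpc1* made up a median of 0.358% of UMIs in Ctrl and 0.0955% in cKO Myh7-main nuclei. Thinned to 500 UMIs, 71.4% (47.8% to 88.7%) of Ctrl and 45.1% (39.2% to 51.1%) of cKO Myh7-main nuclei had a UMI of it, and these intervals overlapped. The shares were 7.04% and 9.68% in outside-fibre nuclei.

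*Mybpc2*, the fast form, lies on the minus strand at chr7:44501699-44524656 and was higher in Myh4- and Myh1-main than in Myh7- and Myh2-main nuclei. It was at 159 CPM in Myh7-main, 98.6 in Myh2-main, 369 in Myh1-main and 708 in Myh4-main Ctrl nuclei. Levels in cKO were 91.1, 78.1, 519.9 and 1092 CPM. The Myh7- and Myh2-main values do not exceed the pooled ones of outside-fibre nuclei, 162 CPM in Ctrl and 129 in cKO, and cannot be told from background. The log2 ratio was 0.63 (0.56 to 0.69) in Myh4-main and 0.49 (0.28 to 0.70) in Myh1-main nuclei, the latter -0.02 (-0.36 to 0.32) with the main myosin read at 500 UMIs. For each 100 Myh4-main nuclei there were 204 UMIs of *Mybpc2* in Ctrl and 227 in cKO, beside 12716 and 8685 of *Ttn*. Thinned to 500 UMIs, 31.3% (29.3% to 33.3%) and 42.8% (40.3% to 45.3%) of Myh4-main nuclei had a UMI of *Mybpc2*, against 5.28% and 4.03% of outside-fibre nuclei.

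Among the UMIs of these paralogues together, *Mybpc1* took 41.5% (40.3% to 42.6%) in Ctrl and 33.9% (32.6% to 35.2%) in cKO Myh4-main nuclei. It took 87.7% (86.3% to 88.9%) and 79.2% (77.5% to 80.8%) in Myh1-main nuclei. The fast form thus had the larger share in cKO within both of these classes, while *Mybpc1* took 94.7% to 97.2% in Myh7- and Myh2-main nuclei of either library. *Mybpc3*, the cardiac form, had 0 UMIs in all nuclei, which allows up to 0.335 CPM in Ctrl and 0.414 in cKO (3 UMIs).

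*Myom3*, the myomesin of slow and intermediate fibres, lies on the plus strand at chr4:135759715-135815564. In Ctrl it was at 1047 CPM in Myh7-main, 686 in Myh2-main, 219 in Myh1-main and 29.5 in Myh4-main nuclei. The cKO library had 639.6, 590.4, 319 and 71.04 CPM. The order was the same in both libraries, with the Myh7- and Myh2-main intervals overlapping in each. As log2 ratios of cKO over Ctrl, these were -0.71 (-1.15 to -0.24) in Myh7-main, -0.22 (-0.43 to 0.00) in Myh2-main, 0.54 (0.27 to 0.82) in Myh1-main and 1.27 (0.97 to 1.56) in Myh4-main nuclei.

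In Myh4-main nuclei *Myom3* was near its level in outside-fibre nuclei, which had 25.9 CPM (14.8 to 42.1) in Ctrl and 41.2 CPM (17.8 to 81.2) in cKO. The slow fibre genes were also higher there in cKO, as given above. In the 1880 Ctrl and 1194 cKO Myh4-main nuclei with no UMI of *Myh7* or of the 8 slow fibre genes, a set chosen after the data had been seen, the log2 ratio was 0.30 (-0.14 to 0.74) and no longer past 1.5-fold.

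*Myom2*, the myomesin of fast fibres and the adult heart, lies on the plus strand at chr8:15057653-15133541. In Ctrl it was at 443 CPM in Myh4-main, 484 in Myh1-main, 149 in Myh2-main and 68.3 in Myh7-main nuclei, the last from 3 UMIs. In cKO it was at 354, 322, 89.4 and 20.8 CPM, the last from 13 UMIs. Myh4- and Myh1-main nuclei overlapped in both libraries and stood above the rest. The log2 ratio was -0.33 (-0.43 to -0.22) in Myh4-main, -0.59 (-0.81 to -0.37) in Myh1-main and -0.74 (-1.26 to -0.22) in Myh2-main nuclei. The Myh7-main values do not exceed the pooled ones of outside-fibre nuclei, 90.6 CPM in Ctrl and 46.3 in cKO, and cannot be told from background. In Myh4-main nuclei the fast genes *Myom2* and *Mybpc2* therefore differed between libraries in opposite directions.

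*Myom1* (plus strand, chr17:71002633-71126856) encodes the myomesin of all striated muscle. It was scarce, at 37.3 CPM in Ctrl and 30.7 in cKO Myh4-main nuclei, and at 33.9 to 75.2 CPM in the other main-myosin classes. The interval of its ratio held 0 in each class. *Gm26561* overlaps it on the same strand, so its UMIs are uncertain.

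Of all myomesin UMIs, *Myom3* took 5.78% (4.97% to 6.68%) in Ctrl and 15.6% (13.7% to 17.6%) in cKO Myh4-main nuclei. The shares were 29.1% and 47.2% in Myh1-main, 75.7% and 81.7% in Myh2-main and 88.5% and 86.96% in Myh7-main nuclei. The intervals of the libraries were apart in Myh4- and Myh1-main nuclei and overlapped in Myh2- and Myh7-main nuclei. In outside-fibre nuclei the share was 20.5% (12.2% to 31.2%) and 44.4% (21.5% to 69.2%).

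*Actn2* lies on the minus strand at chr13:12269426-12340760, and fast fibres also make α-actinin-3 from *Actn3*. In Ctrl it was at 3322 CPM in Myh7-main, 3264 in Myh2-main, 2179 in Myh1-main and 285 in Myh4-main nuclei. In cKO it was at 2600.0, 2972, 2237 and 592 CPM. The classes were closer together in cKO, with Myh7-main nuclei below and Myh4-main nuclei above their Ctrl levels. The log2 ratio was -0.35 (-0.60 to -0.10) in Myh7-main, -0.14 (-0.23 to -0.04) in Myh2-main, 0.04 (-0.05 to 0.13) in Myh1-main and 1.06 (0.96 to 1.15) in Myh4-main nuclei. The Myh7-main value was 0.07 (-0.31 to 0.47) with the main myosin read at 500 UMIs and -0.14 (-0.38 to 0.11) with *Malat1* and mitochondrial genes left out of the totals, and the Myh2-main value was 0.05 under the latter.

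Thinned to 500 UMIs, 9.69% (8.43% to 11.1%) of Ctrl and 18.8% (16.8% to 20.9%) of cKO Myh4-main nuclei had a UMI of *Actn2*, against 5.28% and 12.1% of outside-fibre nuclei. The outside-fibre level differed in the same direction, at 207 and 345 CPM with a log2 ratio of 0.74 (0.29 to 1.17), and its part in the Myh4-main difference was not tested. Among Myh4-main nuclei with no UMI of *Myh7* or the slow fibre genes the log2 ratio was 0.93 (0.82 to 1.05). Nuclei with 2 or more UMIs of *Actn2* at 500 UMIs made up 2.06% of Ctrl and 5.57% of cKO Myh4-main nuclei. Of the UMIs of *Actn2* and *Actn3* together, *Actn2* took 27.3% (26.2% to 28.4%) and 44.2% (42.6% to 45.7%) in Myh4-main nuclei, and 90.01% to 98.9% in the other main-myosin classes.

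**Figure D3:**
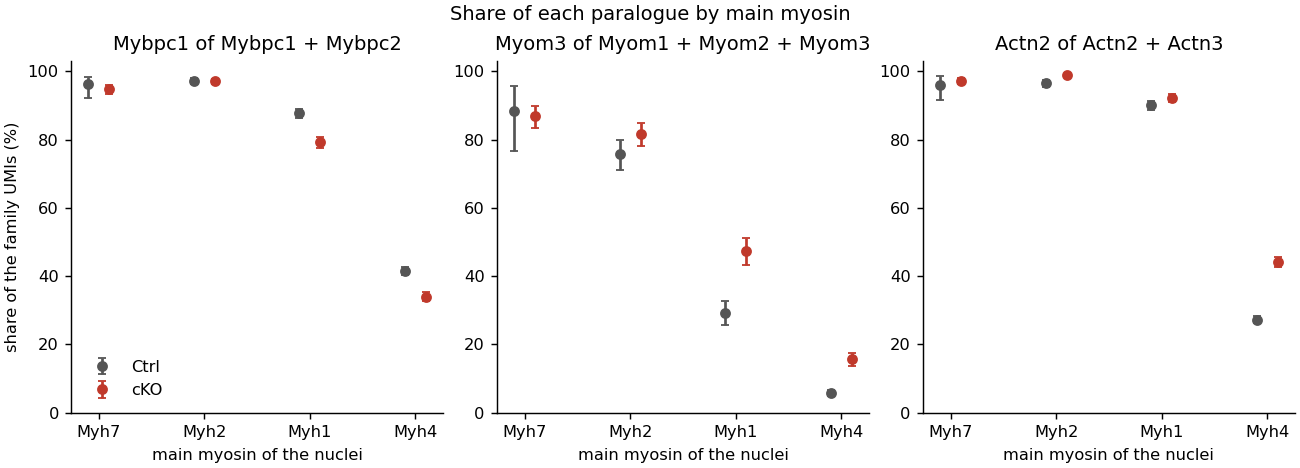
Share of a gene among the UMIs of its family (vertical axes, percent) by main myosin, for Ctrl (grey) and cKO (red), with 95% Clopper-Pearson intervals that cover counting error only. In Myh4-main nuclei the share of *Mybpc1* was 41.5% in Ctrl and 33.9% in cKO, that of *Myom3* 5.78% and 15.6%, and that of *Actn2* 27.3% and 44.2%.

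*Ldb3* (minus strand, chr14:34526603-34588682) was at 2229.9 CPM in Myh7-main, 2385 in Myh2-main, 2174 in Myh1-main and 1901 in Myh4-main Ctrl nuclei. In cKO it was at 2672, 2363, 2183 and 1784 CPM. The ratio on the log2 scale was 0.26 (-0.03 to 0.57) in Myh7-main, -0.01 (-0.13 to 0.10) in Myh2-main, 0.01 (-0.09 to 0.10) in Myh1-main and -0.09 (-0.14 to -0.05) in Myh4-main nuclei, so that the first 3 intervals held 0. With *Malat1* and mitochondrial genes left out of the totals these were 0.47 (0.18 to 0.78), 0.17 (0.05 to 0.28), 0.12 (0.03 to 0.21) and -0.04 (-0.09 to 0.00), and then only the last interval held 0. Set against *Ttn*, there were 4.82 (3.90 to 5.91) *Ldb3* UMIs per 100 *Ttn* UMIs in Ctrl and 8.14 (7.74 to 8.55) in cKO Myh7-main nuclei, and 4.31 (4.23 to 4.39) and 4.27 (4.16 to 4.39) in Myh4-main nuclei. In Myh7-main nuclei *Ttn* itself was lower in cKO. Outside-fibre nuclei had 3.99 (3.51 to 4.51) and 5.41 (4.30 to 6.74), in the same direction, and its part in the fibre values was not tested.

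Within a library, the genes differed in how far they varied with the main myosin. In Ctrl, 7 of the 9 genes were past 1.5-fold in either direction between Myh7- and Myh4-main nuclei (70.9% of all genes with 50 or more UMIs were), 7 between Myh2- and Myh4-main nuclei (45%) and 4 between Myh1- and Myh4-main nuclei (28.5%). The first share, 77.8%, was near that of all genes. It includes *Myom1* and *Myom2*, each with 3 Ctrl Myh7-main UMIs, and the *Myom1* log2 ratio of 0.87 (-1.42 to 2.44) had an interval that held 0. In cKO the counts were 6 (38.9% of all genes), 5 (36.6%) and 4 (26%). *Mybpc1*, *Myom3* and *Actn2*, higher than in Myh4-main nuclei, and *Mybpc2*, lower, were past it in all of these contrasts, and *Ttn* in none. *Ldb3* was just under the threshold between Myh7- and Myh4-main nuclei in cKO, at 1.50-fold (1.42 to 1.58), and past it under 5 of 9 alternatives (1.53- to 1.62-fold). *Neb* in Ctrl was 1.70-fold (1.56 to 1.85) higher in Myh7- than in Myh4-main nuclei, but 1.40-fold (1.23 to 1.59) with the main myosin read at 500 UMIs, no longer past it.

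For *Actn2* and *Mybpc1* the distance between Myh7- and Myh4-main nuclei was smaller in cKO. *Actn2* was 11.7-fold (9.79 to 13.8) higher in Myh7-main nuclei in Ctrl and 4.39-fold (4.10 to 4.70) in cKO, and *Mybpc1* 7.95-fold (6.78 to 9.26) and 2.93-fold (2.71 to 3.17), intervals that did not overlap between libraries. With the main myosin read at 500 UMIs, *Actn2* was 9.29-fold (6.96 to 12.2) and 5.09-fold (4.54 to 5.71) higher, still with no overlap, but for *Mybpc1* the intervals overlapped, at 4.998-fold (3.83 to 6.43) and 3.98-fold (3.49 to 4.54). The Myh4-main levels of *Actn2* (285 CPM in Ctrl and 592 in cKO) were not far above those of outside-fibre nuclei (207 and 345), which also differed between libraries, and the part of this in the folds was not tested. No such fold is given for *Myom3* or *Mybpc2*, which were near the level of outside-fibre nuclei in Myh4-main and in Myh7-main Ctrl nuclei, respectively.

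Between libraries the 9 genes did not move one way. In Myh4-main nuclei 3 were past 1.5-fold and higher in cKO, *Mybpc2*, *Myom3* and *Actn2* (5.41% of 8158 genes were), and 0 were lower (11%). In Myh7-main nuclei 0 were higher (22% of 1821 genes) and 3 of the 8 with 50 or more UMIs were lower, *Mybpc1*, *Mybpc2* and *Myom3* (23.3%). Of these, *Mybpc2*, which could not be told from background there, rests on 7 Ctrl UMIs. It was at 0.84 with 80% of 5 or more myosin UMIs required. In Myh2-main nuclei 0 were higher (5.72%) and *Myom1* and *Myom2* were lower (14.5%), and the same was true of Myh1-main nuclei (7.05% and 10.5%). Both *Myom1* intervals held 0. Totals without *Malat1* and mitochondrial genes ended the lower calls in Myh2-main (*Myom1* -0.56, *Myom2* -0.56) and Myh1-main nuclei (-0.48 and -0.47) and that of *Myom3* in Myh7-main nuclei (-0.50), and put *Mybpc2* (0.61) and *Myom3* (0.66) past 1.5-fold and higher in Myh1-main nuclei. In Myh4-main nuclei the counts were 3 and 0 with these totals too. The median log2 ratio of the 9 genes, beside that of all genes tested, was -0.56 beside -0.08 in Myh7-main, -0.34 beside -0.15 in Myh2-main, 0.01 beside -0.08 in Myh1-main and 0.16 beside -0.06 in Myh4-main nuclei. In Myh7-main nuclei *Myom2* had under 50 UMIs, and the median of the other 8 genes was -0.53. With *Malat1* and mitochondrial genes left out of the totals, the medians of all genes were 0.14, 0.03, 0.03 and -0.02.

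**Figure D4:**
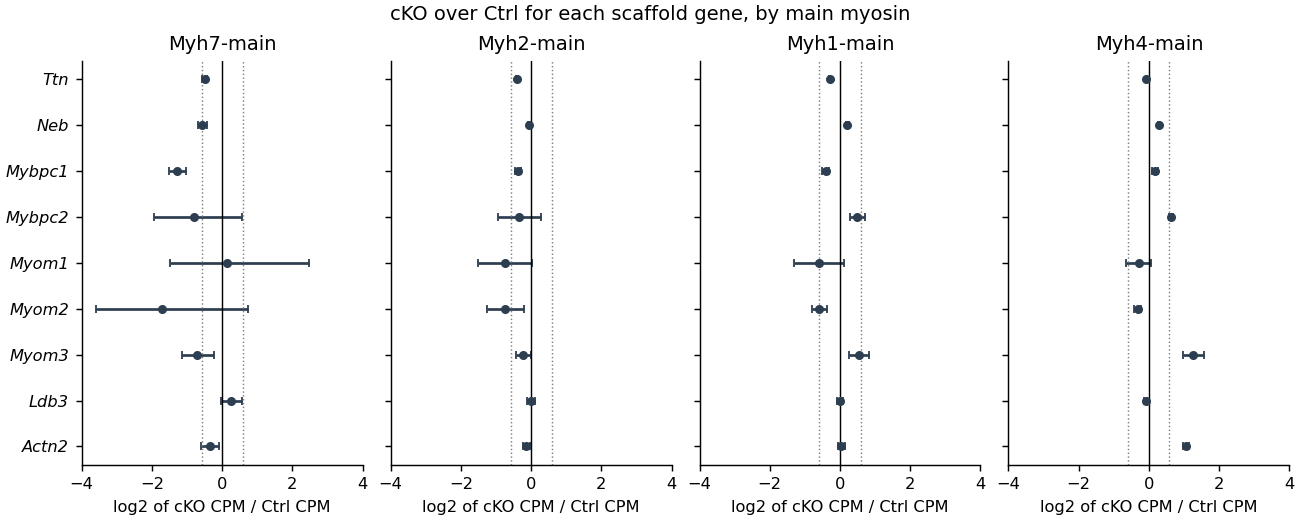
Log2 ratio of cKO over Ctrl CPM (horizontal axes) for each scaffold gene (vertical axis) by main myosin, with 95% exact conditional intervals that cover counting error only and dotted lines at 1.5-fold. *Ttn*, *Neb*, *Mybpc1*, *Myom3* and *Actn2* lie below 0 in Myh7-main nuclei with intervals that hold no 0 (*Actn2* at 0.07 with the main myosin read at 500 UMIs). *Neb*, *Mybpc1*, *Mybpc2*, *Myom3* and *Actn2* lie above 0 in Myh4-main nuclei with intervals that hold no 0. There *Mybpc1* fell below 0 with the main myosin read at 500 UMIs. The *Myom3* interval held 0 without Myh4-main nuclei that had UMIs of *Myh7* or the slow fibre genes.

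Over all myosin-read nuclei the libraries also differed in how many nuclei of each class they held. Myh4-main nuclei gave 76.4% of the myosin-read UMIs in Ctrl and 51.7% in cKO, and Myh7-main nuclei 0.573% and 10.4%. With the main myosin read at 500 UMIs, which left fewer nuclei placed, these shares were 66.99% and 55.3%, and 1.46% and 12.2%. *Myom3*, at 107 CPM in Ctrl and 263 in cKO, and *Actn2*, at 752 and 1479.5, were past 1.5-fold and higher in cKO (6.39% of 9328 genes were). *Myom2*, at 423 and 265 CPM, was lower (12.9%). Under that reading of the main myosin, *Actn2* (a log2 ratio of 0.58) and *Myom2* (-0.58) were just short of 1.5-fold, while *Myom3* (0.70) was past it. *Myom2* was also short of it with *Malat1* and mitochondrial genes left out of the totals.

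Each difference was split into a term from the class shares and a term from the levels within classes. Of the 727 CPM by which *Actn2* was higher in cKO, 544 belonged to the shares and 183 to the levels. Of the 155 CPM of *Myom3*, 135 belonged to the shares and 20.4 to the levels. *Ttn* was the reverse, with a difference of -5908 CPM, of which -522 belonged to the shares and -5385 to the levels. For *Mybpc1* the terms had opposite signs, 513 CPM from shares and -251 from levels, and so they had for *Mybpc2*, -167 and 255 CPM. *Neb* was higher by 1589.8 CPM, 559 from shares and 1031 from levels.

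The split depended on how nuclei were placed. With the main myosin read at 500 UMIs, an alternative added to the split after the data had been seen, *Actn2* was higher by 471 CPM, 266 from shares and 205 from levels. For *Myom3* the terms were 92.4 and -7.59 CPM. *Mybpc1* changed direction over myosin-read nuclei, from a log2 ratio of 0.33 (0.29 to 0.38) to -0.19 (-0.27 to -0.10), with 228 CPM from shares and -398 from levels. With the main myosin at 100% of 5 or more UMIs, *Actn2* had 334 CPM from shares and 343 from levels, so shares were no longer the larger term.

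**Figure D5:**
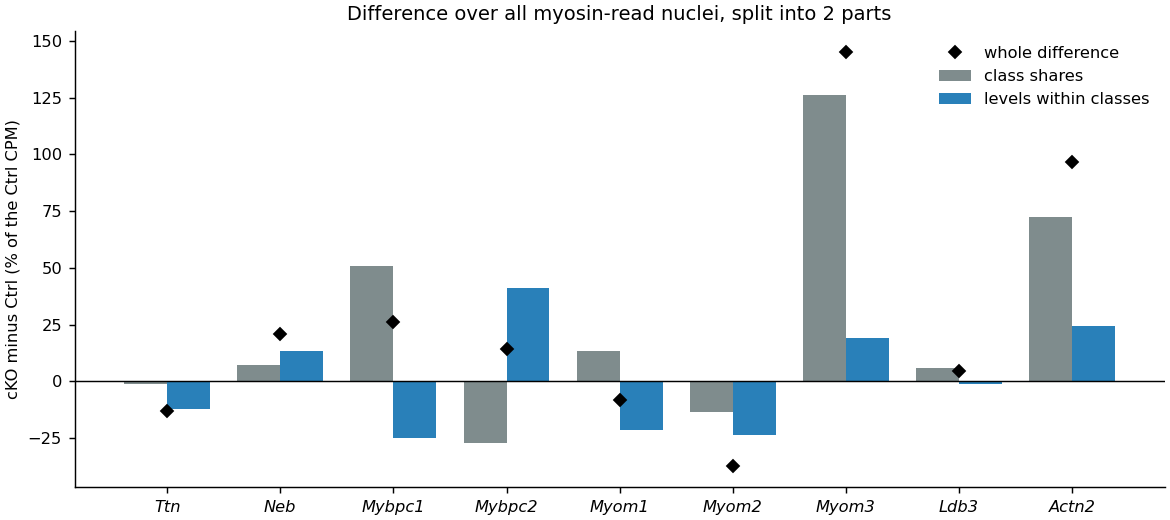
Difference between cKO and Ctrl over all myosin-read nuclei for each scaffold gene, as percent of the Ctrl CPM, split into the term from class shares and the term from levels within classes (bars), with the whole difference as a diamond. For *Actn2* the terms were 72.4% and 24.3%, for *Ttn* -1.16% and -12.01%, and for *Mybpc1* they point in opposite directions. With the main myosin read at 500 UMIs the whole difference of *Mybpc1* was -169 CPM and that of *Ldb3* -26.1 CPM, below 0.

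Mixed nuclei led by *Myh1* and *Myh4* numbered 72 in Ctrl and 65 in cKO. *Mybpc1* was at 1528 CPM (1387 to 1679) in Ctrl and 1257 CPM (1099 to 1431) in cKO there, and *Actn2* at 999.6 CPM (886 to 1123) and 1592 CPM (1414 to 1786). All of these values lay between those of Myh1- and Myh4-main nuclei of the same library. The 557 Ctrl and 761 cKO nuclei with too few myosin UMIs to be placed had *Actn2* at 736 and 1738 CPM and *Myom3* at 128 and 331 CPM.

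Likeness of pattern was measured as Pearson's r of log2(CPM + 1) over the 8 combinations of class and library, as a description, since these points share 2 libraries and their depths. *Actn2* and *Myom3* had r = 0.97, *Actn2* and *Mybpc1* r = 0.95, *Mybpc1* and *Mybpc2* r = -0.74 and *Ldb3* and *Mybpc2* r = -0.90. Among 7270 genes compared, the most alike were *Hadhb*, *Ldhb* and *Lrrc2* for *Myom3*, *Cd36*, *Prkg1* and *Angpt1* for *Mybpc1*, *Alpk3*, *Fhl1* and *Zfp827* for *Actn2*, and *Pvalb*, *Mypn* and *Eif4g3* for *Mybpc2*. They were *Zbtb20*, *Clic5* and *Tacc2* for *Ttn*, *Ppargc1b*, *Smtnl1* and *Cbfa2t3* for *Neb*, *Rbm39*, *Cnot1* and *Clta* for *Myom1*, *2310065F04Rik*, *Esr1* and *Fut8* for *Myom2*, and *Baz1b*, *Asun* and *Apol6* for *Ldb3*. These r ran from 0.947 to 0.997.

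A list of 44 other sarcomere genes sets the 9 genes in context. Over myosin-read nuclei 12 of the 42 with 50 or more UMIs were past 1.5-fold and higher in cKO (6.39% of all genes were) and 2 were lower (12.9%), with a median log2 ratio of 0.27 beside -0.10 over all genes tested. *Cryab*, a small heat shock chaperone of the Z-disc, was at 44.95 CPM in Ctrl and 191 in cKO, *Ankrd1*, a titin-binding ankyrin repeat protein, at 8.21 and 28.5, and *Myoz2*, an α-actinin partner of slow fibres, at 51.2 and 152. At the other end were *Trim63*, a ubiquitin ligase that binds titin, at 1463 and 596 CPM, *Myoz1*, the fast-fibre relative of *Myoz2*, at 244 and 152, and *Actn3* at 639 and 450.5.

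Within Myh4-main nuclei 10 of 42 were higher (5.41% of all genes) and 2 lower (11%), with *Myoz2* at 9.38 CPM in Ctrl and 38.7 in cKO and *Trim63* at 1579 and 581. Within Myh7-main nuclei 6 of 28 were higher (22% of all genes) and 8 lower (23.3%), shares near those of all genes, with *Ankrd2*, a stretch-responsive titin ligand, at 659.9 and 115 CPM and *Nrap*, an actin-binding protein of myofibril assembly, at 2139 and 1027. In Myh2-main nuclei 1 of 37 was higher (5.72% of all genes) and 6 lower (14.5%), and in Myh1-main nuclei 11 of 41 were higher (7.05% of all genes) and 2 lower (10.5%).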

How the data were processed

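Nuclei from GP muscles (pooled, per the protocol) of Ctrl and cKO mice were profiled by 10x 3′ single-nucleus RNA-Seq, 1 library per group. The authors deposited whole UMI counts per gene and barcode, made per the labels with Cell Ranger 3.1.0 on mm10; the treatment of intronic reads is not given in the sources used here, and the kit version differs between the labels and the methods. Barcodes were kept at 100 or more genes, 500 or more UMIs and up to 10% mitochondrial UMIs, which left 3833 of 3863 Ctrl and 3908 of 3994 cKO barcodes. The automatic Scrublet threshold marked 0 nuclei, so the 8% with the highest doublet scores were removed (307 and 313). Outside-fibre nuclei had 3 or more UMIs of 22 markers and more of these than of the 4 myosins; some also passed the myosin rule.

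UMIs were summed over nuclei of a class and divided by the class total (CPM). Intervals are exact Poisson for CPM, exact conditional for ratios and Clopper-Pearson for shares. Genes with 50 or more UMIs over both libraries entered the counts past 1.5-fold. Differences over myosin-read nuclei were split with shares and levels averaged over both libraries. Named genes were the 9 genes, the 3 highest and 3 lowest log2 ratios of the sarcomere list (for single classes not all are printed, and 1 gene of the list is not reported here) and the 3 genes most alike in pattern to each. The members and lists were chosen with earlier results of these data known. Software was scanpy 1.11.5, scipy 1.17.1, pandas 2.3.3, matplotlib 3.10.9 and numpy 2.4.6 under Python 3.11.15, and the scripts were tested on simulated data. Alternatives were other thresholds for the main myosin, kept doublets, nuclei rich in outside-fibre markers left out, other totals, other minimum depths and other thinning.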

Additional observations from a re-analysis of the deposited data

Results flagged for a closer look

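For 4 of the 9 genes the cKO library was below Ctrl in Myh7-main nuclei and above it in Myh4-main nuclei with intervals that held no 0 on either side, and with 1 library per group this difference between classes was not tested. The log2 ratio of *Neb* (nebulin) was -0.56 in Myh7-main and 0.29 in Myh4-main nuclei. The log2 ratio of *Mybpc1* (slow myosin-binding protein C) was -1.28 in Myh7-main and 0.16 in Myh4-main nuclei. The log2 ratio of *Myom3* (the slow-fibre myomesin) was -0.71 in Myh7-main and 1.27 in Myh4-main nuclei. The log2 ratio of *Actn2* (α-actinin-2) was -0.35 in Myh7-main and 1.06 in Myh4-main nuclei. With the main myosin read at 500 UMIs, *Actn2* was at 0.07 in Myh7-main and *Mybpc1* at -0.28 in Myh4-main nuclei, so for these genes the opposite directions were lost. Without Myh4-main nuclei that held a UMI of *Myh7* or the slow fibre genes, *Mybpc1* was at -0.05 and *Myom3* at 0.30. *Mybpc2* had the same signs (-0.81 and 0.63), but its Myh7-main interval held 0.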

How the results depend on the processing

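No paired analysis was possible because each group had 1 library and no test was made, and for the same reason no replicate could be left out. Values set by 1 library cannot be checked against another. Of the log2 ratios of the 9 genes between libraries under the alternatives, 325 stayed within the interval of the value reported, 87 did not, and 1 changed sign with a call, *Mybpc2* in Myh7-main nuclei, at 0.84 with the main myosin at 80% of 5 or more UMIs. Of the log2 ratios between classes, 349 stayed within it and 136 did not. Of the shares of nuclei with a UMI at another depth (thinning to 1000 UMIs or none), 29 did and 115 did not, while those of *Actn2* and *Mybpc2* in Myh4-main nuclei stayed higher in cKO and that of *Mybpc1* in Myh7-main nuclei lower. The median log2 ratio of the 9 genes moved to 0.12 in Myh1-main nuclei, -0.35 in Myh7-main nuclei and 0.29 in myosin-read nuclei with *Malat1* and mitochondrial genes left out of the totals, to -0.11 in Myh4-main nuclei, -0.33 in Myh7-main nuclei and -0.018 in myosin-read nuclei with the main myosin read at 500 UMIs, and to -0.089 in Myh1-main nuclei at 80% of 5 or more UMIs. Alternatives chosen after seeing the data gave -0.11 in Myh1-main nuclei, 0.071 in Myh4-main nuclei and -0.81 in Myh7-main nuclei at 100% of 5 or more UMIs and -0.032 in Myh4-main nuclei without slow fibre UMIs. Over myosin-read nuclei, the count past 1.5-fold and higher was 1 at 2-fold and 1 with the main myosin read at 500 UMIs, and the count lower was 0 under both and with *Malat1* and mitochondrial genes left out. The share of a gene within its family moved to 43.4% for *Mybpc1* in Ctrl Myh4-main, 37.3% for *Mybpc1* in cKO Myh4-main, 6.69% for *Myom3* in Ctrl Myh4-main and 18.6% for *Myom3* in cKO Myh4-main nuclei with doublets kept. They moved to 85.2% for *Mybpc1* in Ctrl Myh1-main, 28.1% for *Mybpc1* in cKO Myh4-main, 41.3% for *Myom3* in cKO Myh1-main, 76.6% for *Myom3* in cKO Myh2-main, 4.38% for *Myom3* in Ctrl Myh4-main, 11.6% for *Myom3* in cKO Myh4-main and 82.6% for *Myom3* in cKO Myh7-main nuclei with the main myosin read at 500 UMIs, and to 89.2% for *Mybpc1* in Ctrl Myh1-main, 98.4% for *Mybpc1* in cKO Myh2-main, 36.7% for *Mybpc1* in Ctrl Myh4-main, 28.6% for *Mybpc1* in cKO Myh4-main, 99.01% for *Mybpc1* in Ctrl Myh7-main, 96.2% for *Mybpc1* in cKO Myh7-main, 4.13% for *Myom3* in Ctrl Myh4-main and 11.2% for *Myom3* in cKO Myh4-main nuclei at 80% of 5 or more UMIs. They moved to 91.3% for *Mybpc1* in Ctrl Myh1-main, 98.7% for *Mybpc1* in Ctrl Myh2-main, 98.9% for *Mybpc1* in cKO Myh2-main, 33.6% for *Mybpc1* in Ctrl Myh4-main, 25.1% for *Mybpc1* in cKO Myh4-main, 100% for *Mybpc1* in Ctrl Myh7-main, 98.5% for *Mybpc1* in cKO Myh7-main, 42.8% for *Myom3* in cKO Myh1-main, 60.4% for *Myom3* in Ctrl Myh2-main, 75.9% for *Myom3* in cKO Myh2-main, 2.52% for *Myom3* in Ctrl Myh4-main, 5.99% for *Myom3* in cKO Myh4-main and 91% for *Myom3* in cKO Myh7-main nuclei at 100% of 5 or more UMIs. The cause was not tested. Ctrl Myh7-main nuclei numbered 11, 14 and 9 at 500 UMIs, 80% and 100%. In the split over myosin-read nuclei, under alternatives added after the data had been seen, the terms that moved by over 1.5 times or changed sign were, in CPM, for shares 266 (*Actn2*), 56.8 (*Ldb3*), 228 (*Mybpc1*), -103 (*Mybpc2*), 154 (*Neb*) and -252 (*Ttn*), for levels -82.9 (*Ldb3*), -398 (*Mybpc1*) and -7.59 (*Myom3*), for the whole difference 471 (*Actn2*), -26.1 (*Ldb3*), -169 (*Mybpc1*), 145 (*Mybpc2*) and 84.8 (*Myom3*) with the main myosin read at 500 UMIs. They were for levels -43.4 (*Ldb3*) at 80%, for shares 334 (*Actn2*), 316 (*Mybpc1*), -106 (*Mybpc2*), -34.3 (*Myom2*), 81.97 (*Myom3*) and 278 (*Neb*) and for levels 343 (*Actn2*), -113 (*Mybpc1*) and 57.5 (*Myom3*) at 100%, for levels 9.17 (*Ldb3*) and 33.7 (*Myom3*) with doublets kept and for levels -55.1 (*Ldb3*) without nuclei rich in markers of cells outside the fibre.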
